A study of Mus musculus with 10 samples.

Results

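The genes described here act in G2 phase and mitosis, and were taken as a list of 42 symbols that covers the cyclins and kinases of mitotic entry, the spindle checkpoint, the machinery of anaphase, the chromosomal passenger complex, centromere and kinetochore proteins, spindle motors, cytokinesis regulators and chromosome structure proteins. Of the 42, 41 had a probe set under their own symbol in the platform annotation, out of 18193 genes measured in all. The exception was Ccnb1, which encodes cyclin B1 and was not analysed here on the arrays. The 41 genes had 97 probe sets among the 45037 on the array, with 13 genes holding a single one, and for the others the brightest over the 10 arrays was used. No threshold on the values was used to choose them, and every test was fitted over all probe sets. The list was, however, chosen with earlier results of these data known. Among these was a difference of proliferation genes between the replicate numbers in the sample labels, so that difference is no independent support.

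The cells were mouse blood progenitors carrying an introduced HOXB4, a homeobox transcription factor that promotes self-renewal of blood stem cells in culture. HOXB4-ER joins HOXB4 to the ligand-binding part of the oestrogen receptor, and is active while 4-hydroxytamoxifen (TMX) is present, and HOXB4const is the unmodified, constitutively active protein. In order, the 5 groups of 2 arrays were HOXB4-ER cells 4 h without TMX, HOXB4-ER cells 1 h without TMX, HOXB4-ER cells 1 h with TMX, HOXB4const cells 1 h without TMX and HOXB4const cells 1 h with TMX. All groups shared 14 days of expansion in serum-free medium with stem cell factor, FLT3 ligand, interleukin 11, interleukin 3 and 10 nM TMX, sorting for GFP-positive, lineage-negative, Sca1-positive, c-kit-positive (LSK) cells, and 12 h more with TMX before the cultures were divided. A 4 h group of HOXB4-ER cells with TMX was not analysed here, so the 4 h cells were set against cells kept with TMX for 1 h. A group without HOXB4 was not analysed here either.

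As background, entry into mitosis is driven by CDK1 bound to A- and B-type cyclins, its progress is held back by the spindle checkpoint until every chromosome is attached, and its end is brought about when the anaphase-promoting complex marks cyclins and securin for destruction. The messenger RNAs of these proteins rise together from late S phase into G2 phase and are low in G1 phase and in resting cells, so that their summed level follows the share of dividing cells in a population. In resting cells the DREAM complex represses them, and in G2 phase B-MYB, FOXM1 and the CCAAT-binding factor NF-Y activate them, through CCAAT boxes and through CHR elements (cell cycle genes homology regions) close to the start site. Blood stem cells in the marrow are mostly resting, whereas stem and progenitor cells expanded in culture with cytokines divide.

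Promoters are shown because many members were higher on the arrays of 1 replicate number, as described further on. These elements are also a well known shared feature of mitotic genes. Whether they bear on the replicate difference was not tested, and only counts are given further on. The RefSeq promoter table (GRCm38.p6) held 38 promoters of 35 of the 42 genes. The bases printed are the 150 that precede the annotated start site, written 5′ to 3′ in the direction of the gene, and the capitals mark CCAAT or its reverse complement, and the CHR spellings TTTGAA (or its reverse complement) and TTCGAA. Mki67, Cdc20, Top2a and Cdk1 are given as members that hold both elements, and Ube2c as a member that holds both and was lower on the replicate 2 arrays in some groups and higher in others. They lie at chr7:135716380-135716529 (minus strand), chr4:118437344-118437493 (minus strand), chr11:99024190-99024339 (minus strand), chr10:69352913-69353062 (minus strand) and chr2:164769779-164769928 (plus strand).
Mki67: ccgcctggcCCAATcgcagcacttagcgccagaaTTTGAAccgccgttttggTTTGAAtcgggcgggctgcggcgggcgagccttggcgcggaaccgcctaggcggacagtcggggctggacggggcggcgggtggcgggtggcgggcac
Cdc20: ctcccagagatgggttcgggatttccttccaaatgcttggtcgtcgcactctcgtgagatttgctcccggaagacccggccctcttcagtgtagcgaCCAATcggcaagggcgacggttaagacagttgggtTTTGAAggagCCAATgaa
Top2a: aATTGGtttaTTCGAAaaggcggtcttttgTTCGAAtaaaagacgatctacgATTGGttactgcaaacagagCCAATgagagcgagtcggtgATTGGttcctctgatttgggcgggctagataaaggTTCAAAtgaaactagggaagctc
Cdk1: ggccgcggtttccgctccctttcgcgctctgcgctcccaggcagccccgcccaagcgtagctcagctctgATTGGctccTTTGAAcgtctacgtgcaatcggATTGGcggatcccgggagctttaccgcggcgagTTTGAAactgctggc
Ube2c: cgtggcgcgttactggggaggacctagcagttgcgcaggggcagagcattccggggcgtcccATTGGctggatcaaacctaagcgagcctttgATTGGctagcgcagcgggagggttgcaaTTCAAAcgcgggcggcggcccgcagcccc

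Counted over the 250 bases before the start site and on both strands, CCAAT stood in 33 of the 38 promoters of these genes (86.8%), against 35.4% of the 21262 promoters of protein-coding genes in the same table. It stood at 2 or more sites in 20 of the 38 (52.6%, against 11.4%). TTTGAA stood in 17 (44.7%, against 14.5%) and TTCGAA, which reads the same on both strands, in 2 (5.26%, against 1.58%). Both CCAAT and TTTGAA were found in 16 promoters (42.1%, against 5.23%), which belong to 14 genes. The 91 promoters of the other mitotic genes of 4 related lists had CCAAT in 54.95%, TTTGAA in 26.4% and both in 16.5%. The 23 promoters of DNA replication genes had CCAAT in 73.9% and TTTGAA in 8.7%. The CCAAT sites of the members had a median position of −72.5 relative to the start site, and the TTTGAA sites one of −99.5, in bases. These counts describe letters and not bound sites: no binding was measured in this series, the lists were not matched for base composition, and some genes have more than 1 promoter in the table.

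**Figure D1:**
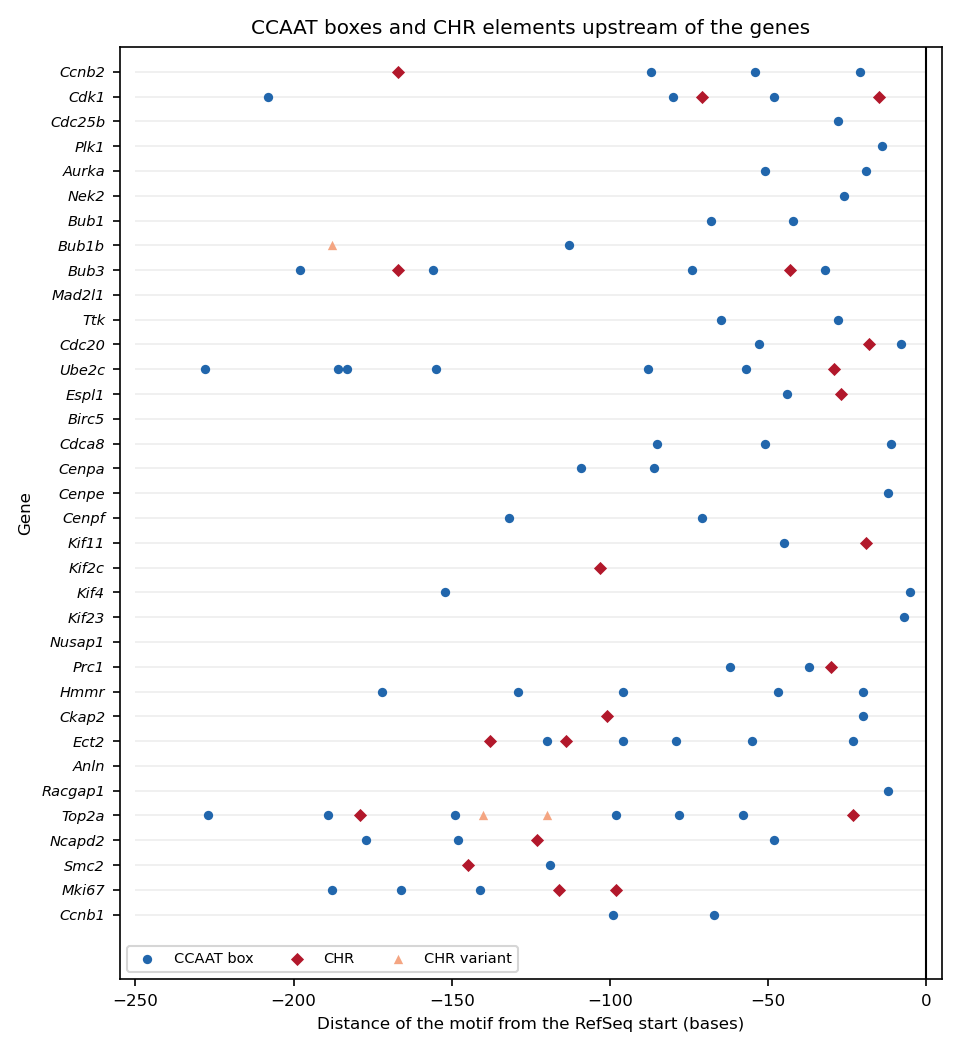
Positions of CCAAT boxes, CHR elements (TTTGAA) and the CHR variant (TTCGAA) in the 250 bases before the RefSeq start site of the 35 genes with a promoter in the table. The x axis is the position of the motif relative to the start site in bases, each row is a gene, and the promoters of a gene with 2 of them share a row. Of the 38 promoters, 33 hold a CCAAT box and 17 a CHR element.

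Levels are log2 signals, scaled by the authors so that every array has the same trimmed mean, and they are compared for a gene between arrays and not between genes, since probe sets differ in affinity. The array medians ranged between 3.96 and 5.32. The replicate 1 array of HOXB4const cells without TMX stood apart with the highest median (5.32) and with 0.0155% of its values below 0, against 0.378% to 8.17% on the other 9 arrays. Of the 8 LSK markers, 6 were measured. Their mean levels were 11.3 (Cd34), 9.77 (Kit), 9.54 (Gata2), 7.77 (Meis1), 7.06 (Flt3) and 6.25 (Gfi1b). Each list of markers of maturing cells spanned a wide range of mean levels: 2.95 (Ltf) to 12.4 (Ctsg) for the 9 of granulocytes, 4.76 (Tpsb2) to 12.0 (Cpa3) for the 6 of mast cells and basophils, 3.68 (Vwf) to 11.3 (Pf4) for the 6 of megakaryocytes, 5.31 (Fcgr1) to 10.95 (Lyz2) for the 10 of monocytes and macrophages and 0.90 (Alas2) to 5.41 (Gata1) for the 7 of erythroid cells. The 6 lymphocyte markers ran from 2.15 (Cd4) to 6.27 (Il7r), and the 6 dendritic cell markers from 3.45 (Xcr1) to 7.65 (Cd74). In bulk samples of this kind, fewer dividing cells and less RNA per cell cannot be told apart.

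The members' mean levels over the 10 arrays lay between 7.27 for Plk1 and 11.58 for Top2a, all above the median over all probe sets of 4.05. A total of 8016 probe sets had a mean at or above that of Plk1, and these bright probe sets serve below as the background of like signal. The members split by the replicate number in the labels (biological replicate 1 or 2), a kind of difference that was known when the list was chosen. Their summed linear signal was 39110, 31372, 33760, 37335 and 35867 on the replicate 2 arrays, in the order of groups given above, against 26781, 24739, 25095, 23212 and 27060 on the replicate 1 arrays. No replicate 2 array overlapped the replicate 1 arrays in this sum, which weighs most on the brightest members. Over the bright probe sets the same sum was also shifted upward, but with overlap. It was 6.31e+06 to 7.46e+06 on the replicate 2 arrays, against 5.87e+06 to 6.99e+06 on the replicate 1 arrays.

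**Figure D2:**
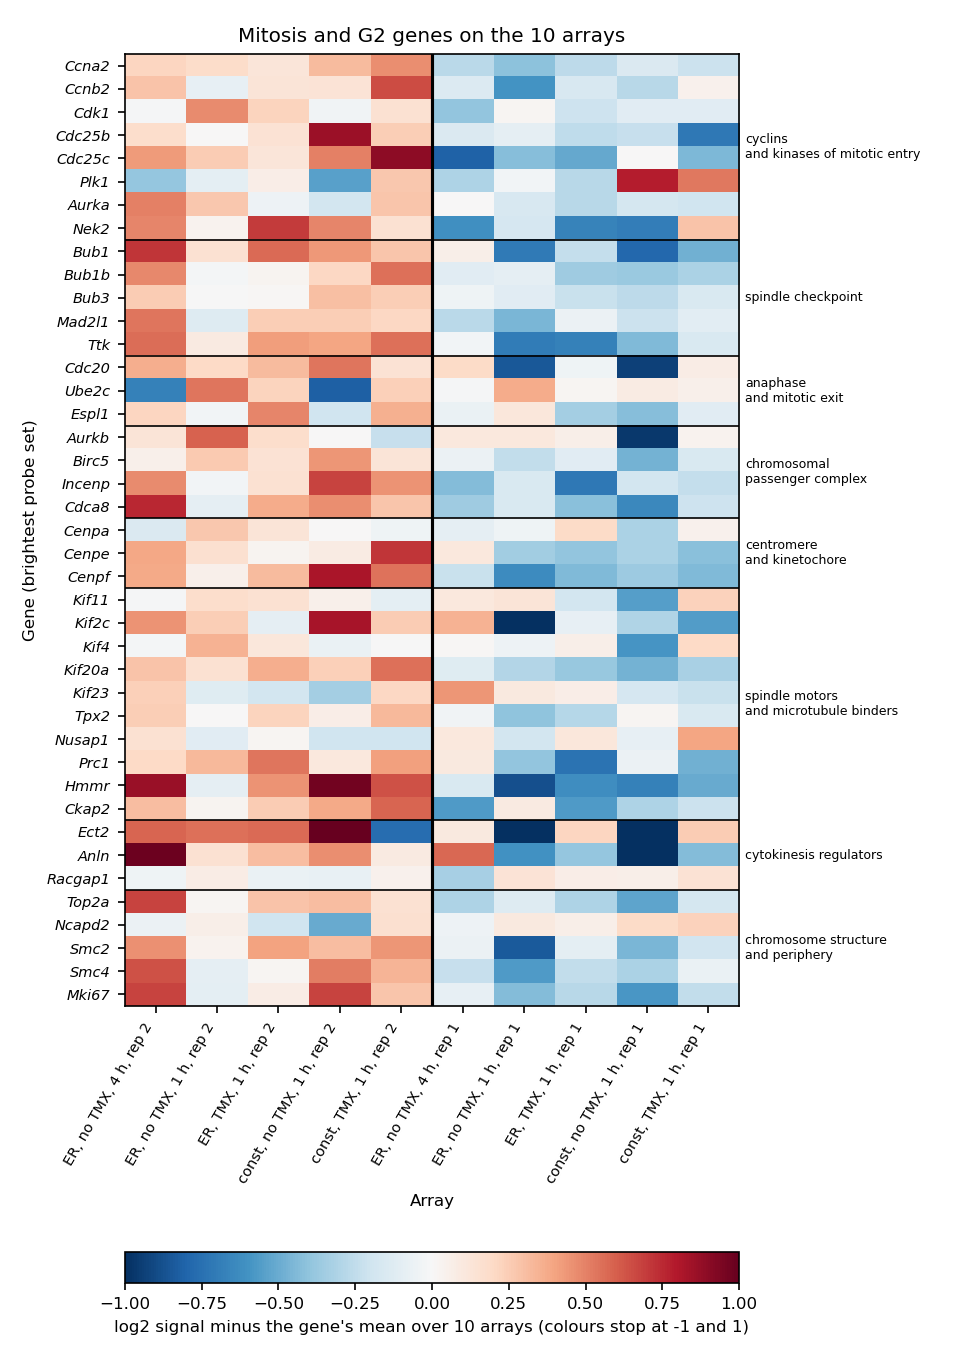
Log2 signal of the 41 measured genes on the 10 arrays, as the difference from each gene's own mean, with genes in rows ordered by role and the 5 replicate 2 arrays left of the 5 replicate 1 arrays. Red is above and blue below the mean, and colours stop at −1 and 1. The sum over the genes was 31372 to 39110 on the arrays of the left block and 23212 to 27060 on those of the right block.

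Among the regulators of mitotic entry, Ccna2, which encodes cyclin A2, the partner of CDK2 and CDK1 in S and G2 phase, had log2 signals of 10.45, 10.42, 10.36, 10.55 and 10.70 on the replicate 2 arrays, against 9.96, 9.83, 9.97, 10.09 and 10.02 on the replicate 1 arrays. The 2 sets of Ccna2 values did not overlap, which held in this direction for 12.9% of the bright probe sets. Cdk1, the kinase that starts mitosis, had 10.41, 10.89, 10.64, 10.38 and 10.57, against 10.02, 10.43, 10.21, 10.30 and 10.30, so that it was higher in each of the 5 pairs although the sets overlapped. Aurka, the kinase of centrosome maturation, had 8.44, 8.198, 7.88, 7.75 and 8.21, against 7.94, 7.77, 7.65, 7.75 and 7.73. Plk1, a kinase needed from mitotic entry to cytokinesis, had 6.88, 7.18, 7.34, 6.73 and 7.54, against 6.96, 7.24, 6.995, 8.05 and 7.80. Its differences of −0.08, −0.06, 0.34, −1.33 and −0.25 were thus mixed. Their mean was negative, and ran from −0.43 to −0.01 when 1 array was left out. The widest gap for Plk1 was between the HOXB4const arrays without TMX. Cdc25c, a phosphatase that activates CDK1, had 7.94, 7.77, 7.64, 8.02 and 8.40, against 6.71, 7.09, 6.999, 7.52 and 7.06, again without overlap.

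In the spindle checkpoint, Bub3, a scaffold of the checkpoint complex, had 10.80, 10.54, 10.56, 10.85 and 10.79 on the replicate 2 arrays, against 10.50, 10.44, 10.32, 10.29 and 10.40 on the replicate 1 arrays. All 5 checkpoint members were higher in 5 of 5 pairs, against 25.3% of the bright probe sets. For 4 of them the 2 sets did not overlap, against 12.9% of the bright probe sets. Cdc20, the activator of the anaphase-promoting complex that the checkpoint restrains, had 10.14, 9.98, 10.10, 10.31 and 9.93, against 9.97, 8.93, 9.74, 8.84 and 9.86. Ube2c, the ubiquitin-conjugating enzyme of the same complex, had 8.89, 10.11, 9.79, 8.75 and 9.81, against 9.56, 9.94, 9.59, 9.650 and 9.62. The replicate 2 values of Ube2c were thus lower in HOXB4-ER cells after 4 h and in HOXB4const cells without TMX, and higher in the other 3 groups.

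In the chromosomal passenger complex, which corrects faulty attachments and directs cytokinesis, Birc5 (survivin) had 10.56, 10.77, 10.65, 10.94 and 10.63 on the replicate 2 arrays, against 10.45, 10.26, 10.39, 10.03 and 10.35 on the replicate 1 arrays. Aurkb, its kinase, had 8.74, 9.20, 8.79, 8.62 and 8.39, against 8.72, 8.72, 8.67, 7.65 and 8.65. Only Birc5 of this pair showed no overlap. Among the chromosome structure genes, Top2a, the topoisomerase that untangles sister chromatids, had 12.26, 11.60, 11.87, 11.89 and 11.73, against 11.28, 11.45, 11.27, 11.06 and 11.40. Mki67, the proliferation marker that coats mitotic chromosomes, had 11.92, 11.14, 11.32, 11.92 and 11.52, against 11.16, 10.81, 10.97, 10.66 and 10.99. Ncapd2, a condensin subunit, had 9.63, 9.75, 9.49, 9.18 and 9.85, against 9.64, 9.79, 9.74, 9.88 and 9.92. It was the member that was lower in 5 of 5 pairs.

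The largest replicate difference belonged to Hmmr, a microtubule-binding protein of the spindle poles, with 9.37, 8.42, 8.96, 9.47 and 9.15 on the replicate 2 arrays, against 8.35, 7.62, 7.88, 7.83 and 8.01 on the replicate 1 arrays. The lowest replicate 2 value of Hmmr lay above its highest replicate 1 value. Ect2, which activates RhoA for cytokinesis, had 8.65, 8.63, 8.65, 9.32 and 7.31, against 8.18, 6.81, 8.29, 6.58 and 8.33. Its spread within groups was the widest of the members, and in HOXB4const cells with TMX the order was turned.

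Over the 41 genes, 35 had a positive mean difference (replicate 2 minus replicate 1, adjusted for group) and 6 a negative one, with a median of 0.55 on the log2 scale. Among the bright probe sets 64% were higher in replicate 2, with a median of 0.15, and among all probe sets 41.3%, with a median of −0.15. Of the members, 25 were higher in 5 of 5 pairs, against 25.3% of the bright and 6.72% of all probe sets, and 1 was lower in 5 of 5 (13.1% of the bright probe sets). For 16 members (39%) every replicate 2 value lay above every replicate 1 value, which held for 12.9% of the bright and 2.74% of all probe sets, and for 0 members the reverse (5.28% of the bright probe sets). Within the groups, the number of members higher in replicate 2 was 34, 35, 35, 34 and 31 of 41 in the order above, with median differences of 0.40, 0.40, 0.38, 0.60 and 0.47. Without either HOXB4const array without TMX, 1 of which stood apart, the median over all groups was 0.46 and 34 members were higher.

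In the limma fit with a common prior for all probe sets, 0 of 41 members and 0 of 45037 probe sets (0%) differed between the replicate numbers at an adjusted p under 0.05. Without adjustment, 14 members had a p under 0.05, all of them higher in replicate 2, against 8.57% of the bright probe sets as higher and 7.09% as lower. The smallest adjusted p of a member was 0.183, for Hmmr. With the prior allowed to follow the mean level of the probe sets, 15 of 41 members passed, all higher in replicate 2, against 1.93% of all and 9.51% of the bright probe sets that passed as higher (4.13% and 7.2% as lower). The median half-width of the 95% confidence interval of a member was 0.58 with the common prior and 0.34 with the trend.

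The 15 that passed with the trend came from every role except anaphase and mitotic exit. For mitotic entry they were Ccna2 (0.52 ± 0.14, SE) and Cdc25c (0.88 ± 0.19). The checkpoint kinases Bub1 (0.86 ± 0.14) and Ttk (0.80 ± 0.16) were among them, as were Incenp (0.69 ± 0.15), the scaffold of the passenger complex, and its targeting subunit Cdca8 (0.71 ± 0.17). Cenpf, a kinetochore protein that accumulates in G2 phase, differed by 0.84 ± 0.16. On the spindle, Hmmr (1.13 ± 0.16), the midzone motor Kif20a (0.63 ± 0.15) and the microtubule-associated Ckap2 (0.62 ± 0.16) passed, and in cytokinesis Anln, the actin-binding scaffold of the contractile ring (0.80 ± 0.19). In chromosome structure 4 of 5 members passed, which were Top2a (0.58 ± 0.16), Mki67 (0.64 ± 0.16) and the condensin ATPases Smc2 (0.66 ± 0.14) and Smc4 (0.57 ± 0.15). Their adjusted p in this limma fit ran from 0.000688 for Hmmr to 0.0462 for Top2a, and 14 of them were higher in 5 of 5 pairs, Ckap2 in 4. The cultures were divided after sorting, so arrays of the same construct and replicate number may share a culture. The pairs may then not be independent, and these p-values do not measure a spread between cultures. The anaphase group had 0 of 3 past the threshold, too few genes to set this role apart. Its differences were 0.62 for Cdc20, 0.33 for Espl1 and −0.20 for Ube2c. Cdc20 had an adjusted p of 0.074 in the limma fit with the trend.

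The 6 members with a negative difference were Plk1 (−0.28 ± 0.23), Ncapd2 (−0.21 ± 0.15), Ube2c (−0.20 ± 0.18), Nusap1 (−0.14 ± 0.15), Kif23 (−0.08 ± 0.16) and Racgap1 (−0.03 ± 0.16), and none of these 6 passed. Centring each array on its median, which removes a shift of −0.32 between the replicate numbers, turned Plk1, Ncapd2 and Ube2c positive and left all 41 members higher in replicate 2, against 83.3% of the bright probe sets after the same step. The genes have 56 further probe sets, of which 25 had the direction of the one used and 31 the other. Of the 24 further probe sets with a mean level of at least 6, 16 were higher and 8 lower in replicate 2. That share is near the 64% of the bright probe sets, which start at a higher level (7.27) and so are not matched in signal. For 7 genes a further probe set disagreed with the one used, among them Smc4, whose 2 further probe sets differed by −0.29 and −0.65, and Top2a, whose dim further probe set (mean level 6.11) differed by −0.998. With the mean of all probe sets of a gene, the median difference was 0.33. Of the 10 genes that passed and have a promoter in the table, 9 held CCAAT and 4 TTTGAA, and of the other 24 measured genes with a promoter, 20 held CCAAT and 11 TTTGAA.

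**Figure D3:**
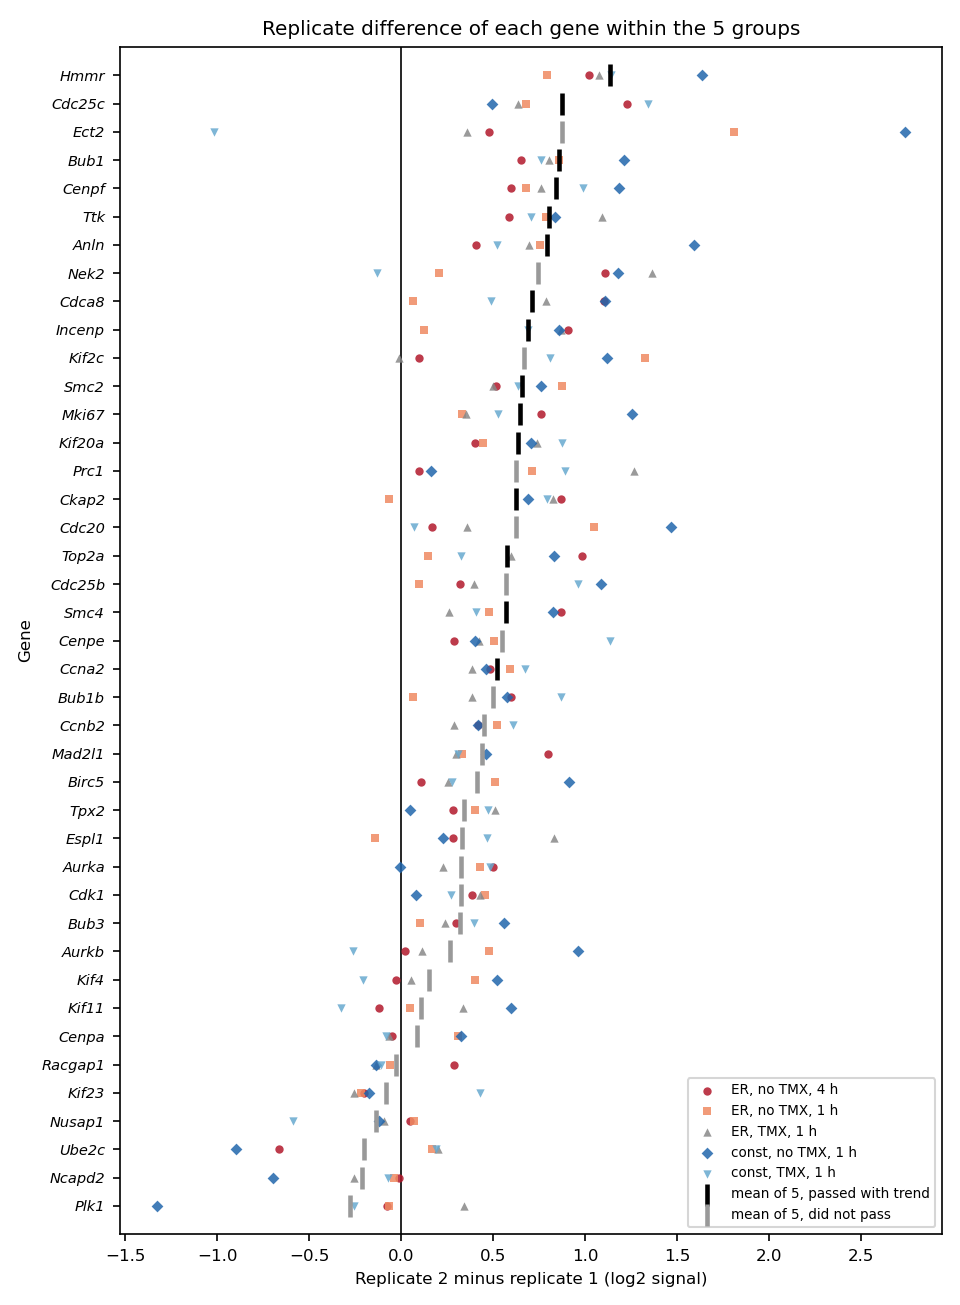
Replicate 2 minus replicate 1 difference of each of the 41 genes within the 5 groups, in log2 signal, with genes ordered by the mean of the 5 differences. Black bars mark the means of the 15 genes that passed in limma with a trend on the mean level, and grey bars those that did not. The means run between −0.28 for Plk1 and 1.13 for Hmmr.

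Related lists were read against the 64% of bright probe sets that were higher in replicate 2 (median 0.15) and the 9.51% that passed as higher with the trend. Some of their genes, such as Cenpm (mean level 5.58) and Lin52 (5.14), lie below the limit of the bright probe sets (7.27). For these genes the background is not matched in signal. Of 32 other kinetochore genes, 29 were higher with a median of 0.36, and 6 passed with the trend, among them the outer kinetochore genes Ndc80 (0.79 ± 0.18) and Spc25 (0.74 ± 0.14). Of 27 other spindle and cytokinesis genes, 23 were higher with a median of 0.51, and 8 passed, among them Plk4, the kinase of centriole duplication (1.05 ± 0.17), and the spindle pole gene Aspm (0.87 ± 0.16). Of 22 other regulators of entry and exit, 19 were higher with a median of 0.43 and 4 passed, among them Cks2 (0.74 ± 0.16), which encodes a small subunit of CDK complexes. Of 17 other chromosome structure genes, 15 were higher with a median of 0.48, and 2 passed, among them the condensin gene Ncapg (0.93 ± 0.15). DNA replication genes gave 20 of 24 with a median of 0.39 and 6 passed, among them the licensing factor Cdt1 (0.70 ± 0.16) and the helicase subunit Mcm6 (0.58 ± 0.15). Of 16 transcriptional regulators of the mitotic programme, 11 were higher with a median of 0.14, near the values of the bright probe sets, and 0 passed. The 2 of 17 chromosome structure genes also lay near that background. These errors are standard errors of the fit with the trend, and in the fit with the common prior 0 genes of these lists passed.

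Other measures moved with the replicate numbers. All 10 monocyte and macrophage markers were lower in replicate 2, with a median difference of −2.67, and their summed signal was 1306 to 2398 on the replicate 2 arrays, against 9912 to 16087 on the replicate 1 arrays. No defining marker was at 0: Csf1r had a mean level of 9.28 and Adgre1 one of 7.08. All 6 dendritic cell markers were lower as well (median −2.04, summed signal 104 to 193, against 300 to 3825), and 8 of 9 granulocyte markers (median −1.67, summed signal 8008 to 17919, against 7340 to 21035). The LSK markers split 3 to 3, with a median of 0.15. Mast cell markers were higher for 2 of 6 (median −0.85), megakaryocyte markers for 2 of 6 (−0.15), lymphocyte markers for 2 of 6 (−0.59) and erythroid markers for 3 of 7 (−0.12). With the trend, 9 of the monocyte and macrophage markers and 3 of the dendritic cell markers passed as lower. Of the LSK markers Meis1, Kit and Gata2 passed as higher and Flt3 as lower. The granulocyte markers S100a8, Elane and S100a9, the mast cell and basophil markers Mcpt8 and Cma1 and the lymphocyte marker Il7r passed as lower, and the megakaryocyte marker Pf4 and the mast cell marker Ms4a2 as higher, while no erythroid marker passed. For the Gapdh controls, signal at the 3′ end over that at the 5′ end, which reflects RNA integrity and amplified length, was 3.47, 1.48, 1.74, 3.98 and 2.93 (log2) on the replicate 2 arrays, against 1.42, 1.01, 1.04, 1.28 and 0.74 on the replicate 1 arrays. The part of these markers and of RNA quality in the members' difference was not tested.

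**Figure D4:**
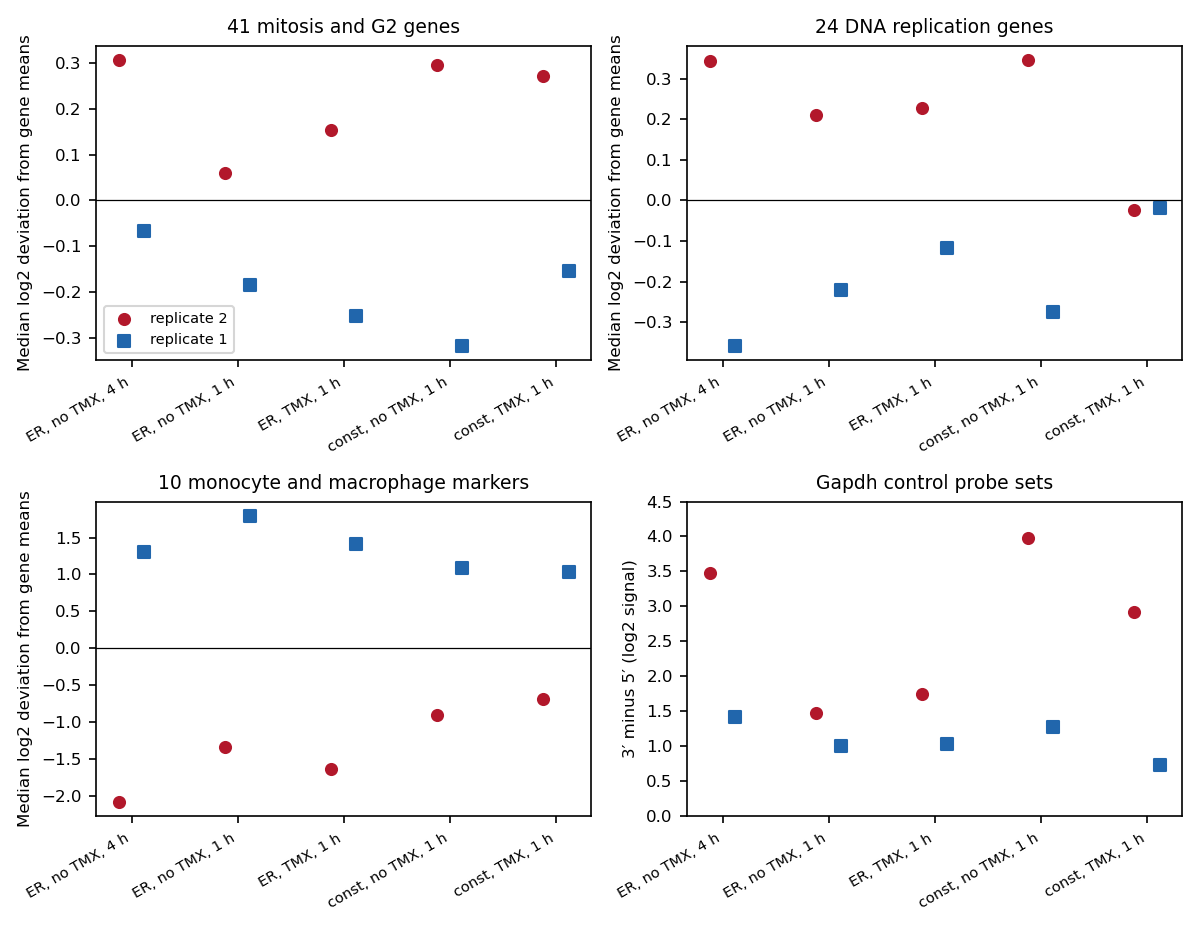
Median deviation from the gene means, in log2 signal, of the 41 mitosis and G2 genes, of 24 DNA replication genes and of 10 monocyte and macrophage markers, and the log2 ratio of 3′ to 5′ Gapdh signal, for each array by group. Red circles are replicate 2 and blue squares replicate 1. The members' medians are 0.06 to 0.31 on replicate 2 arrays and −0.32 to −0.07 on replicate 1 arrays, and the Gapdh ratio is 1.48 to 3.98, against 0.74 to 1.42.

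Whether loss of HOXB4 activity changed these genes was asked by removing TMX from HOXB4-ER cells. After 1 h without TMX, 18 members were higher and 23 lower than with TMX, with a median difference of −0.04, against 45.6% of the bright probe sets higher (57.7% of all). In both pairs of arrays 10 were higher and 14 lower, against 26.4% and 32.4% of the bright probe sets. By role, 5 of 8 genes of mitotic entry were higher, and 4 of 5 chromosome structure genes were lower. No member passed in limma (0 of 41, smallest adjusted p 0.99992), also with the trend, and 0 of 45037 probe sets passed (0%). At an unadjusted p under 0.05 there were 0 members, against 3.42% of all probe sets higher and 1.34% lower. For this count, here and in the group comparisons below, the share among the bright probe sets is not given. The members thus lack a background of like signal for it. The median half-width of a member's 95% confidence interval was 1.25 in 2 arrays against 2, or 0.85 with the trend. Leaving out an array also leaves unequal replicate numbers: 12 members were higher without the replicate 2 array without TMX, 31 without its replicate 1 array, 30 without the replicate 2 array with TMX and 8 without its replicate 1 array.

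The highest differences after 1 h were those of Ube2c, Cdk1 and Aurkb, with replicate 2 given before replicate 1. Ube2c had 10.11 and 9.94 without TMX, against 9.79 and 9.59 with TMX, a difference of 0.33 ± 0.49 (SE). Cdk1 had 10.89 and 10.43, against 10.64 and 10.21 (0.24 ± 0.44), and Aurkb 9.20 and 8.72, against 8.79 and 8.67 (0.23 ± 0.48). The groups overlapped for Cdk1 and Aurkb and not for Ube2c. The lowest were those of Ect2, with 8.63 and 6.81 without TMX, against 8.65 and 8.29 with TMX (−0.75 ± 0.995), Smc2 with 9.75 and 8.87, against 10.11 and 9.61 (−0.55 ± 0.55), and Cdc20 with 9.98 and 8.93, against 10.10 and 9.74 (−0.46 ± 0.62). For Ect2 and Cdc20 the replicate 1 array without TMX made most of the difference. Overlap between groups, here and in the group comparisons below, is described for genes chosen as the highest and lowest. The share of the bright probe sets without overlap is not given for these comparisons. A lack of overlap between 2 arrays and 2 is thus descriptive only. Centring each array on its median takes the same shift of 0.39 off every probe set. It left 0 of 41 members higher with a median of −0.43, against 6.95% of the bright probe sets with a median of −0.41, and turned Ube2c, Cdk1 and Aurkb negative. After quantile normalization 21 members were higher, against 49.1% of the bright probe sets.

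After 4 h without TMX, 31 members were higher and 10 lower than in cells kept 1 h with TMX, with a median difference of 0.09, against 50.6% of the bright probe sets higher. In both pairs 22 were higher and 5 lower, against 29.1% and 30.6% of the bright probe sets. All 5 checkpoint genes (median 0.22), all 5 chromosome structure genes (median 0.20) and 9 of 10 spindle motors and microtubule binders (median 0.11) were on the higher side. The test passed 0 of 41 members and 0 of 45037 probe sets (0%), with or without the trend. At an unadjusted p under 0.05 there were 0 members, against 1.59% of all probe sets higher and 1.76% lower. Every member's adjusted p was 1. The Gapdh 3′ to 5′ log2 ratio was 3.47 and 1.42 on the 4 h arrays, against 1.74 and 1.04 on the arrays with TMX, and its part in these differences was not tested. Leaving out the 4 h replicate 2 array left 14 members higher, leaving out the replicate 1 array with TMX left 11, and leaving out either of the others left 35.

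Anln had the highest value of this comparison, with 8.999 and 8.59 after 4 h without TMX, against 8.33 and 7.63 with TMX (0.81 ± 0.65), and its groups did not overlap. Kif2c, a kinesin that depolymerises microtubules at centromeres, had 7.96 and 7.86, against 7.42 and 7.43 (0.49 ± 0.63), also without overlap. Hmmr had 9.37 and 8.35, against 8.96 and 7.88 (0.44 ± 0.79), with overlap between the groups. On the other side stood Ube2c with 8.89 and 9.56, against 9.79 and 9.59 (−0.47 ± 0.49), and Cenpa, the histone H3 variant of centromeres, with 8.88 and 8.94, against 9.16 and 9.22 (−0.28 ± 0.40). Plk1 had 6.88 and 6.96, against 7.34 and 6.995 (−0.25 ± 0.53). Neither of the 2 arrays after 4 h reached the TMX values for these 3 genes. With the mean of all its probe sets, Cenpa had a difference of 0.58.

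Set against 1 h without TMX, the cells after 4 h had 29 members higher and 12 lower, with a median of 0.20, against 54.4% of the bright probe sets higher and a median of 0.04 for them. In both pairs 21 were higher and 8 lower, against 33.9% and 27.2% of the bright probe sets. The checkpoint genes were higher in 5 of 5 (median 0.43) and the chromosome structure genes in 4 of 5 (median 0.53), while the genes of mitotic entry split 5 to 3 (median 0.03). Limma passed 0 of 41 members (smallest adjusted p 0.947) and 0 of 45037 probe sets (0%), and the fit with the trend also passed 0. At an unadjusted p under 0.05 there were 0 members (1 with the trend, Ube2c), against 1.67% of all probe sets higher and 4.01% lower. With the replicate number as a block and the trend, a setting chosen after seeing the data, 8 members were higher at an unadjusted p under 0.05 (Bub1, Ttk, Kif2c, Hmmr, Anln, Smc2, Smc4 and Mki67) and 1 lower (Ube2c), against 6.03% and 6.2% of the bright probe sets, and 0 members passed after adjustment. Leaving out the 4 h replicate 2 array left 19 members higher, and the other arrays 23 to 32. These comparisons share the 4 h arrays, or the 1 h arrays, with those above.

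Anln had 8.999 and 8.59 after 4 h, against 8.17 and 7.41 after 1 h (1.003 ± 0.65), Hmmr 9.37 and 8.35, against 8.42 and 7.62 (0.84 ± 0.79), and Kif2c 7.96 and 7.86, against 7.76 and 6.43 (0.82 ± 0.63). The groups of Anln and Kif2c did not overlap, those of Hmmr did, again without a background share. Kif2c had a difference of −0.08 with the mean of all its probe sets. The lowest was Ube2c, with 8.89 and 9.56, against 10.11 and 9.94 (−0.80 ± 0.49), a gap that was present in both pairs. Cdk1 had 10.41 and 10.02, against 10.89 and 10.43 (−0.45 ± 0.44), and Racgap1, a regulator of cytokinesis at the midzone, 7.82 and 7.53, against 7.94 and 7.99 (−0.29 ± 0.39). All 3 were below every 1 h value after 4 h, Cdk1 by a gap of a few hundredths. The median of the members was 0.62 after centring, which removes a shift of −0.41 from every probe set, with 39 members higher, against 86.6% of the bright probe sets with a median of 0.45, and Racgap1 then had 0.12.

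Among the related lists, 23 of 32 other kinetochore genes (median 0.29), 18 of 27 other spindle and cytokinesis genes (median 0.22), 16 of 22 other regulators of entry and exit (median 0.13) and 12 of 17 other chromosome structure genes (median 0.21) were higher after 4 h than after 1 h without TMX. DNA replication genes were higher in 10 of 24 (median −0.03). Among the bright probe sets 54.4% were higher, with a median of 0.04. None of these genes passed. Ube2s, another ubiquitin-conjugating enzyme of the anaphase-promoting complex, had −1.05 ± 0.45, beside Ube2c, and Kif20b, a motor of cytokinesis, 1.21 ± 0.64. The 16 transcriptional regulators split 8 to 8, with Lin54, a DNA-binding subunit of the DREAM complex, at 1.56 ± 0.75 and Foxm1, the transcription factor of many mitotic genes, at −0.72 ± 0.43. The Gapdh 3′ to 5′ log2 ratio was 3.47 and 1.42 on the 4 h arrays, against 1.48 and 1.01 on the 1 h arrays, and its part in these differences was not tested.

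TMX was also removed from HOXB4const cells, which carry no inducible protein. After 1 h without TMX, 9 members were higher and 32 lower than with TMX, with a median of −0.15, against 34.2% of the bright probe sets higher and a median of −0.09 for them. In both pairs 4 were higher and 11 lower, against 9.89% and 28% of the bright probe sets. The 5 checkpoint genes and the 3 anaphase genes were all on the lower side. Limma passed 0 of 41 members (smallest adjusted p 0.99994) and 0 of 45037 probe sets (0%), and 0 with the trend. At an unadjusted p under 0.05 there were 0 members, against 3.3% of all probe sets higher and 1.05% lower. The median was 0.19, with 27 members higher, without the replicate 1 array of cells without TMX, which stood apart, and −0.46, with 2 higher, without their replicate 2 array. It was 0.12, with 26 higher, without the replicate 2 array with TMX, and −0.32, with 4 higher, without the replicate 1 array with TMX. The Gapdh 3′ to 5′ log2 ratio was 3.98 and 1.28 without TMX, against 2.93 and 0.74 with TMX, and its part in these differences was not tested.

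Cdc25b, a phosphatase that activates CDK1 at the centrosome, had 8.61 and 7.52 without TMX, against 7.999 and 7.04 with TMX (0.55 ± 0.56), Kif2c 8.33 and 7.21, against 7.76 and 6.95 (0.42 ± 0.63), and Cenpf 9.20 and 8.02, against 8.93 and 7.94 (0.18 ± 0.64). All 3 overlapped between the groups, and the replicate numbers lay further apart than the treatments. Ube2c had 8.75 and 9.650, against 9.81 and 9.62 (−0.51 ± 0.49), with the replicate 2 array alone on the lower side. Espl1, the separase that cleaves cohesin at anaphase, had 7.54 and 7.31, against 8.09 and 7.63 (−0.43 ± 0.47), and the chromokinesin Kif4 7.75 and 7.22, against 7.81 and 8.02 (−0.43 ± 0.42). For these last 2 the groups did not overlap. Centring, which removes a shift of 0.31, left 2 members higher with a median of −0.45, against 5.01% of the bright probe sets with a median of −0.39, and turned Cenpf to −0.13, and the mean of all its probe sets turned it to −0.49.

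The difference between the constructs in the response to 1 h without TMX was tested directly. It had a median of 0.05 over the members, with 26 positive and 15 negative, against 56.2% of the bright probe sets positive. Limma passed 0 of 41 members (smallest adjusted p 1) and 0 of 45037 probe sets (0%), and 0 with the trend. At an unadjusted p under 0.05 there were 0 members, against 1.78% of all probe sets higher and 1.99% lower. In both replicate numbers 11 were positive and 8 negative, against 31.5% and 17.3% of the bright probe sets, and leaving out single arrays left 14 to 36 positive. The highest values were those of Ube2c (0.85 ± 0.69), Aurkb (0.61 ± 0.68) and Ncapd2 (0.50 ± 0.61), and the lowest those of Ect2 (−0.88 ± 1.41), Kif2c (−0.75 ± 0.90) and Cdc25b (−0.53 ± 0.79). For Ect2 the HOXB4const difference was 2.01 in replicate 2 and −1.75 in replicate 1, and the difference of responses −2.03 and 0.28.

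**Figure D5:**
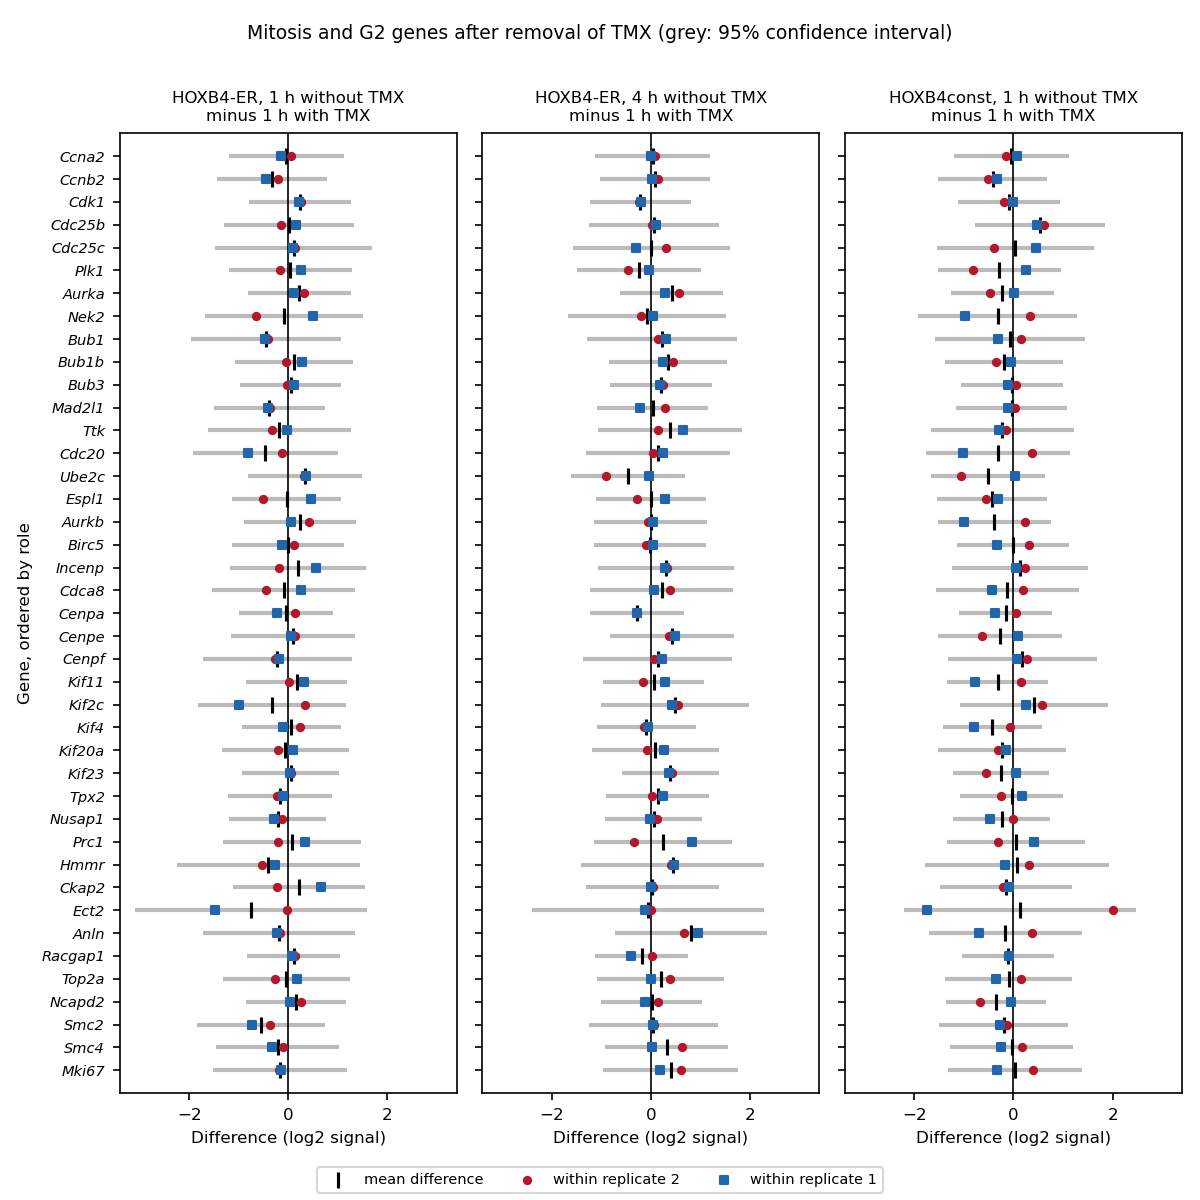
Difference without minus with TMX of each of the 41 genes, in log2 signal, for HOXB4-ER cells after 1 h, HOXB4-ER cells after 4 h (against 1 h with TMX) and HOXB4const cells after 1 h. Black bars are the mean differences, red circles and blue squares the differences within replicates 2 and 1, and grey lines the 95% confidence intervals of limma with the common prior. Every interval includes 0, and the medians over the genes are −0.04, 0.09 and −0.15.

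With TMX present, HOXB4-ER cells were set against HOXB4const cells at 1 h. Of the members, 12 were higher and 29 lower in HOXB4-ER cells, with a median of −0.08, against 55.4% of the bright probe sets higher. In both pairs 6 were higher and 19 lower, against 28.8% and 23.1% of the bright probe sets. The genes of mitotic entry (7 of 8, median −0.20) and the spindle motors and microtubule binders (9 of 10, median −0.07) were mostly on the lower side. Limma passed 0 of 41 members (smallest adjusted p 0.99995) and 0 of 45037 probe sets (0%), and 0 with the trend. At an unadjusted p under 0.05 there were 0 members, against 0.786% of all probe sets higher and 3.59% lower. Leaving out a replicate 2 HOXB4-ER array or a replicate 1 HOXB4const array left 6 members higher, and leaving out their counterparts 28 and 31. After centring, which removes a shift of −0.42 from every probe set, 40 members were higher with a median of 0.34, against 95.8% of the bright probe sets with a median of 0.45. After quantile normalization 7 members were higher with a median of −0.13, against 48.2% of the bright probe sets with a median of −0.01.

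Ect2 had 8.65 and 8.29 in HOXB4-ER cells, against 7.31 and 8.33 in HOXB4const cells (0.64 ± 0.995), a difference carried by 1 HOXB4const array. Bub1 had 9.84 and 9.03, against 9.55 and 8.79 (0.27 ± 0.64), and Aurkb 8.79 and 8.67, against 8.39 and 8.65 (0.21 ± 0.48). The 2 Aurkb groups did not overlap, by a gap of a few hundredths. Plk1 had 7.34 and 6.995, against 7.54 and 7.80 (−0.50 ± 0.53), with no overlap either. Cdc25c had 7.64 and 6.999, against 8.40 and 7.06 (−0.42 ± 0.67), and Incenp 10.96 and 10.09, against 11.26 and 10.57 (−0.39 ± 0.58), both overlapping. Granulocyte markers were higher in HOXB4-ER cells for 8 of 9, with a median of 1.34 and 0 past the threshold. Mpo, Prtn3, Elane and Ctsg were higher in both pairs, and the others in 1 of 2. The mast cell and basophil markers split, with Ms4a2 (−1.48 ± 0.53) and Cpa3 lower and Mcpt8, Cma1, Tpsb2 and Fcer1a higher. The Gapdh 3′ to 5′ log2 ratio was 1.74 and 1.04 in HOXB4-ER cells, against 2.93 and 0.74 in HOXB4const cells. The part of these markers and of RNA quality in the members' difference was not tested.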

How the data were processed

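Messenger RNA of 10 samples was measured on Affymetrix mouse genome arrays, after linear amplification with T7 polymerase, per the labels' protocols. The deposited table of the authors holds 1 log2 signal for every probe set on each array. GCOS and RMA stand in the submitters' processing notes, with no role stated for either. The deposited log2 values have the same 2% trimmed mean of linear signal on every array (100.0) and reach below 0, so they were treated as log2 GCOS signals with global scaling and were not normalized again. Leaving out 64 control probe sets left 45037. Genes were named from the platform annotation where a probe set has 1 symbol (34945 probe sets; 932 have several and 9160 are not listed).

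The tests used limma (version 3.58.1, R 4.3.3) over these 45037 probe sets, with 1 mean for each of the 5 groups of 2 arrays (5 residual and 2.21 prior degrees of freedom), two-sided moderated tests and Benjamini-Hochberg adjustment, threshold 0.05. For the replicate numbers a term was added to the same fit (4 and 1.82 degrees of freedom). Errors of differences are limma's standard errors. The number of arrays limits the precision. In the comparisons of groups so does the replicate difference, which stays in the error of a fit without a block. On simulated data with 200 changed probe sets of 45037, HOXB4-ER cells after 1 h, the test recovered 0 of 200 at a log2 change of 1 or 2 and 159 at 4. The simulated noise took its spread from the fit of group means, replicate difference included. A replicate number is only what the titles give, so p-values measure the spread between these samples.

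The members and the related lists were chosen with earlier results of these data known, among them that proliferation genes differ between the replicate numbers, so that difference is no independent support. By rule, 10 measured genes are given on all arrays, with the 3 highest and 3 lowest members of each comparison and up to 4 genes of a related list by p. Names of the 15 members past the threshold, of those with a negative replicate difference and of genes with disagreeing probe sets were added after their values were seen. Alternatives were centring, quantile normalization, a floor of 4, a filter on dim probe sets, the mean of all probe sets, a trend in the prior, only the groups compared, a replicate block (alone or with the trend), and leaving out arrays. Motifs were searched in the 250 bases before each RefSeq start site.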

Additional observations from a re-analysis of the deposited data

How the results depend on the processing

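Of 990 values under alternatives, 908 kept their direction and side of the threshold, or stayed within the spread. For the 6 comparisons of groups, no alternative brought a member past the threshold. Replicate number as a block, which changed no call (0 members, 0 probe sets), left the medians as they were, at −0.04, 0.09, 0.20, −0.15, 0.05 and −0.08, and gave a median half-width of a member's interval of 0.92, against 1.25 without it, for comparisons of a pair of groups. The block together with the trend, chosen after seeing the data, gave 0.55, with 0 members and 4 (4 h against TMX), 4 (4 h minus 1 h), 10 (constructs) and otherwise 0 probe sets past the threshold. Arrays of 1 number deviated together (correlation 0.210 to 0.527 over 10 pairs of groups), but 2 numbers do not show pairing. A floor at 4 brought 37 probe sets past the threshold after 1 h without TMX in HOXB4-ER cells, 43 for 4 h minus 1 h, 110 in HOXB4const cells, 63 for the difference of responses and 24 between constructs, with 0 members. Centring on the array median gave members' medians of −0.43, 0.62, −0.45 and 0.34 for 1 h in HOXB4-ER cells, 4 h minus 1 h, HOXB4const cells and the constructs. It turned Ube2c (−0.054), Cdk1 (−0.15) and Aurkb (−0.15) after 1 h, Racgap1 (0.12) for 4 h minus 1 h, Cenpf (−0.13) in HOXB4const cells, and Cdc25c (0.0013) and Incenp (0.028) between constructs. The mean of all probe sets turned Cenpa (0.58) for 4 h against TMX, Kif2c (−0.082) for 4 h minus 1 h and Cenpf (−0.49) in HOXB4const cells.

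Leaving out 1 array leaves unequal replicate numbers. The medians then ran from −0.24 to 0.16 (HOXB4-ER, 1 h), −0.12 to 0.33 (4 h against TMX), −0.05 to 0.45 (4 h minus 1 h), −0.46 to 0.19 (HOXB4const), −0.21 to 0.37 (difference of responses) and −0.30 to 0.13 (constructs). Members whose sign turned were Aurkb (−0.0080 to 0.47), Ect2 (−1.65 to 0.16) and Cdc20 (−0.98 to 0.062) in HOXB4-ER cells after 1 h, Hmmr (−0.10 to 0.98) after 4 h, Kif2c (−0.14 to 0.97) and Cenpf (−0.42 to 0.77) in HOXB4const cells, Ect2 (−2.24 to 0.49) and Cdc25b (−1.08 to 0.0082) in the difference of responses, and Bub1 (−0.14 to 0.67), Cdc25c (−1.09 to 0.25) and Incenp (−0.82 to 0.045) between constructs.

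Between the replicate numbers, the count of members past the threshold was 0 with the common prior, 4 with only the brighter probe sets (850 probe sets in all), 6 with the floor (504) and 15 with the trend (2728). The median of 0.55 was 0.87 after centring, 0.38 after quantile normalization, 0.33 with the mean of all probe sets, 0.46 without either HOXB4const array without TMX (an alternative chosen after seeing the data) and 0.46 to 0.55 leaving out 1 array. Centring turned Plk1 (0.046), Ncapd2 (0.11) and Ube2c (0.12), and the cause was not tested.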
